A study of Gallus gallus with 9 samples.

Results

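The mandibular prominence and the frontonasal mass, the buds at the lower and upper ends of the embryonic chicken face, were compared. The comparison took the 3 arrays titled for the mandibular prominence and the 3 titled for the frontonasal mass, 6 of the 9 arrays of the study, by their titles alone. The other 3 arrays held the maxillary prominence and served to estimate the spread and, where said, to set 1 array against all others. All embryos were untreated chick (Gallus gallus) of unknown genotype, kept at 38 degrees C and taken at Hamburger Hamilton stage 18, after crest migration and before cartilage, bone and muscle differentiate. Each replicate was a pool of 26 to 32 dissected pieces, mesenchyme with its epithelium, from which 500 ng of total RNA was labelled in 2 amplification cycles for 1 Affymetrix chicken array. Days of dissection and hybridisation were not given in the sources used here, so all p values stand for the spread from pool to pool.

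The mandibular prominence is the lower part of the first pharyngeal arch and forms the lower jaw, whereas the frontonasal mass lies in front of the forebrain between the nasal pits and forms the middle of the upper beak. Both are filled mainly by cranial neural crest cells, which carry no HOX code at this level and take their identity from local signals. In arch crest, endothelin and BMP signals are known to set up nested domains of DLX, HAND and MSX factors along the arch. Frontonasal crest receives hedgehog, FGF and retinoid signals from forebrain and facial ectoderm and is marked by ALX factors. It lies beside an ectoderm derived from the anterior neural border and its placodes.

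The labels were checked with genes of known place. HAND2, a regulator of the distal arch, had signals of 204, 196 and 171 in mandibular pools 1, 2 and 3 and 5.15, 50.02 and 3.09 in frontonasal pools 1, 2 and 3. PITX1, a homeobox gene of the jaw and hindlimb, measured 149.5, 156 and 138 against 50.4, 50.7 and 75.3. On the maxillary arrays it measured 209, 182 and 169, so it checks the mandibular label against the frontonasal one only. PAX7, a crest gene of the frontonasal region, measured 4.27, 2.53 and 2.9 against 64.3, 66.7 and 107, and SP8, a zinc finger gene of facial ectoderm and the anterior neural border, 15.6, 24.3 and 32.1 against 703, 511 and 721. All of these, and MSX1, MSX2, ALX1 and SIX3 below, separated the labelled groups without overlap, although frontonasal pool 2 carried a HAND2 signal above its array background.

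Frontonasal pool 2 stood apart from the other pools. It had 150 genes at least 1 log2 unit above both other frontonasal pools, against 4 to 13 genes for each of the 8 other arrays within its own group, and 62 genes at least 1 log2 unit above all 8 other arrays, against 0 to 2. Genes of liver and yolk sac were prominent. FGB, the fibrinogen beta chain, reached 2292 on that array against 75.9 on the next highest of the 9, and TTR, the carrier transthyretin, 1699 against 235.5. Over 43 measured liver and yolk sac genes the summed signal was 9195 on that array and 2378 to 2766 on the others. The liver marker APOA1 measured 519 there, against 195 on the next highest array. ALB, the albumin of liver, did not follow, with 55.8 there and 63.5 on a maxillary array, and the gut markers VIL1 and CDH17 stayed below background on all arrays. A further gut marker, CDX2, was above background on all 9 arrays. It did not single out that pool, with 277 there and 297 on frontonasal pool 1. Results are therefore given with all pools and without frontonasal pool 2, and its part in a result was tested only by leaving it out. The 9 arrays had medians of 34.3 to 37.3 intensity units before scaling and backgrounds of 31.6 to 37.1. GAPDH 3' to 5' ratios, a sign of RNA quality, were 1.285, 1.236 and 1.226 in mandibular pools 1 to 3 and 1.511, 1.269 and 1.377 in frontonasal pools 1 to 3. For GAPDH, frontonasal pools 1 and 3 thus lay above every mandibular pool. Actin ratios were 2.013, 2.032 and 2.173 against 2.408, 1.881 and 1.965, so frontonasal pools 2 and 3 lay below every mandibular pool. EF1A ratios were 1.44, 1.207 and 1.248 against 1.606, 1.422 and 1.35, and only frontonasal pool 1 lay above every mandibular pool. The part of these ratios in the results was not tested.

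In limma's test, 974 of 38439 probe sets (2.53%) passed an adjusted p of 0.05 between the buds, which is a call throughout. Differences are mandibular minus frontonasal on the scale log2(signal + 16), given with their standard error, for 3 pools per group. The standard error is limma's moderated one, drawn from the spread within all groups fitted, maxillary included, and from the other probe sets. With 1 probe set for each of 13009 genes, 238 genes (1.83%) were called higher and 300 (2.31%) lower in the mandibular pools. Of these, 84 were higher and 116 lower by at least 1, and 21 higher and 35 lower by at least 2. None of the 538 called genes overlapped between the 6 arrays. A call itself favours such genes, and the share without overlap over all genes is not given, so this adds no support. The median difference over all genes was 0.0043. The counts of list members below are to be read against these shares. The lists were chosen with earlier results of these data known, so their counts and medians are no independent support. Without frontonasal pool 2, 1089 probe sets (2.83%) were called, and of the genes 327 (2.51%) were higher and 281 (2.16%) lower. In tissue pools, fewer cells of a type and less RNA per cell cannot be told apart.

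**Figure D1:**
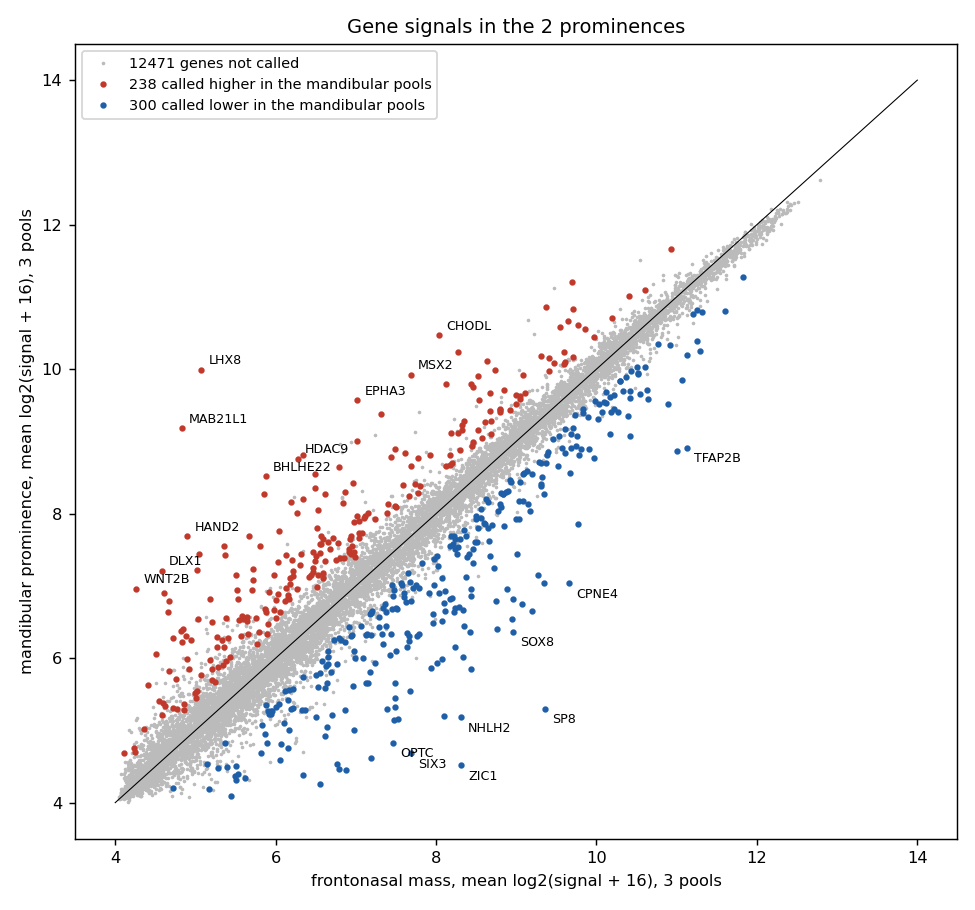
Mean log2(signal + 16) of each of 13009 genes in the 3 mandibular pools (vertical axis) against the 3 frontonasal pools (horizontal axis). The 238 genes called higher in the mandibular pools are red, the 300 called lower blue, the rest grey, and the line marks equal signal. LHX8 and MAB21L1 lie furthest above the line and SP8 and ZIC1 furthest below it.

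Factors of the ventral and distal arch separated the buds in one direction. Of 18 measured genes of this list, 9 were higher in the mandibular pools, 0 lower and 9 did not pass, and the median difference was 1.08, against 0.0043 over all genes. In the 6 fits that left out 1 pool, 6 to 11 members were called, fewest without mandibular pool 1 and most without frontonasal pool 2. MSX2, a homeobox effector of BMP signals in distal mesenchyme, had signals of 1052, 835 and 989.7 against 121, 274 and 204. The highest frontonasal pool lay far below the lowest mandibular one, and the difference was 2.23 ± 0.24 (limma adjusted p = 0.00235). MSX1, its paralogue, measured 831, 666 and 742 against 369, 344 and 349, a difference of 1.04 ± 0.12 (adjusted p = 0.00262). GSC, a homeobox gene of lower jaw mesenchyme downstream of endothelin, measured 83.2, 73.99 and 48.4 against 9.69, 17.2 and 10.1. As no frontonasal array showed GSC above background, it was at least 1.98-fold higher, and for such genes the fitted difference (1.56 ± 0.19) depends on the pseudocount.

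DLX6 and DLX5, the paired homeobox genes that give the lower arch its identity, were both higher. DLX6 measured 1193, 953 and 1143 against 398, 310.0 and 446 (1.48 ± 0.23, limma adjusted p = 0.0123). DLX5 was bright in both buds, with 3603, 2922 and 3222 against 2043, 1627 and 2153 (0.74 ± 0.15, adjusted p = 0.0388). These groups did not overlap, but the gap was narrower for DLX5. The call of DLX6 was lost without mandibular pools 1 or 3 (limma adjusted p up to 0.0563). That of DLX5 was lost without any 1 of the 6 pools (limma adjusted p up to 0.14). A second, dimmer DLX5 probe set, above background on 3 of the 6 arrays, was also called higher. Its means were 77.55 against 4.94, a difference of 2.145 (limma adjusted p = 0.0002955). HAND2, given above, differed by 2.79 ± 0.43 (adjusted p = 0.0123), with its call lost without mandibular pools 1 or 2 or frontonasal pool 1 (limma adjusted p up to 0.0553). The call of HAND2 was also lost at pseudocount 1 (limma adjusted p = 0.0788). Without frontonasal pool 2 the difference of HAND2 was 3.36 ± 0.21 (adjusted p = 0.000333), at least 5.51-fold. PITX1 differed by 1.15 ± 0.14 (adjusted p = 0.00407), the mesenchymal homeobox gene PRRX1 by 1.02 ± 0.15 (adjusted p = 0.0102) and GBX2, a homeobox gene known from the hindbrain boundary and the arches, by 1.12 ± 0.15 (adjusted p = 0.00639). A second PITX1 probe set was not called (1.04, limma adjusted p = 0.134). HAND1 and DLX3, further distal arch genes, were below background on all 6 arrays.

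Factors known from the proximal arch and upper jaw included LHX8 and MAB21L1, the genes with the largest differences of all those higher in the mandibular pools. Of 15 measured factors, 5 were higher and 1 lower, and 9 missed the threshold (median 0.21), and 4 to 6 members were higher when 1 pool was left out. LHX8, a LIM homeobox gene of oral jaw mesenchyme, measured 956, 1025 and 1025 in the mandibular pools and 17.5, 28.8 and 9.52 in the frontonasal pools. It was below background on every frontonasal array and at least 29.6-fold higher in the mandibular prominence (4.92 ± 0.19, limma adjusted p = 2.12e-05). MAB21L1, a gene needed for eye and face development in mammals, measured 663, 622 and 439 against 11.5, 30.98 and 1.82, at least 16.7-fold higher. Its paralogue MAB21L2 measured 538, 535 and 284 against 60.9, 96.7 and 44.7, with mandibular pool 3 the lowest of its group, and differed by 2.48 ± 0.30 (adjusted p = 0.00407).

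DLX1, which marks the whole arch and the proximal arch most strongly, measured 159.9, 129 and 111 against 7.47, 6.46 and 9.82, at least 3.9-fold higher (2.63 ± 0.15, limma adjusted p = 0.000125). PBX3, a homeodomain cofactor, differed by 0.64 ± 0.13 (adjusted p = 0.041), a call lost without any 1 pool other than frontonasal pool 2 (limma adjusted p up to 0.145). TBX22, a T-box gene of palate and nasal mesenchyme, was the lower member, with 75.1, 83.5 and 72.5 against 695, 340.4 and 456. Its lowest frontonasal signal, in pool 2, still lay far above every mandibular pool, and the difference was -2.41 ± 0.28 (adjusted p = 0.00327). LHX6, the usual partner of LHX8 in arch mesenchyme, was below background on all 6 arrays.

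Factors of the frontonasal and periocular mesenchyme ran the other way. Of 17 measured genes, 7 were lower in the mandibular pools, 1 higher and 9 did not pass (median -0.28), with 5 to 7 lower when 1 pool was left out. ALX1, a paired-type homeobox gene required for the upper face, measured 106, 130.4 and 112 against 607, 586 and 728. TFAP2B, an AP-2 factor of crest and ectoderm, measured 516, 450.2 and 436 against 2500, 1838 and 2378. EYA2, a coactivator in placode and eye development, measured 85.95, 76.9 and 90.98 against 599, 472 and 648. In all 3 genes the frontonasal pools lay close together and several times above the mandibular ones, with differences of -2.31 ± 0.14 for ALX1, -2.21 ± 0.16 for TFAP2B and -2.54 ± 0.15 for EYA2 (limma adjusted p = 0.000187, 0.000265 and 0.000134).

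PAX7 was below background in every mandibular pool and at least 2.29-fold above the mandibular pools (-2.28 ± 0.15, limma adjusted p = 0.000227). PAX3, its paralogue in crest and dorsal neural tissue, measured 29.3, 20.3 and 13.2 against 77.3, 53.7 and 99.7 (-1.32 ± 0.28, adjusted p = 0.0498), and its call was lost without any 1 pool other than frontonasal pool 2 (limma adjusted p up to 0.16). PAX3 too was below background in every mandibular pool, and its fitted difference depends on the pseudocount. SOX10, a gene of migrating crest and glia, measured 73.3, 55.9 and 68.3 against 244, 159 and 157 (-1.29 ± 0.20, adjusted p = 0.0132), a call lost without mandibular pools 2 or 3 (limma adjusted p up to 0.0616). A second, dimmer SOX10 probe set had means of 28.2 against 10.9 and was not called (0.69, limma adjusted p = 0.216). With the mean of its probe sets SOX10 was not called (-0.30, limma adjusted p = 0.33). LMX1B, a LIM homeobox gene of periocular mesenchyme, was dim, at 3.75, 4.63 and 4.22 against 24.6, 28.3 and 49.8 (-1.28 ± 0.18, adjusted p = 0.00891). TWIST2, a helix-loop-helix gene of dermal and skeletal mesenchyme, was the exception of the list, with 95.4, 111 and 84.2 against 12.9, 33.8 and 16.9 (1.64 ± 0.21, adjusted p = 0.00581). The ALX4 and SOX9 probe sets were below background on all 6 arrays. TWIST1, a crest mesenchyme gene, measured 272, 349.6 and 262 against 301, 274 and 234, overlapping (0.11 ± 0.17, 95% interval -0.27 to 0.50).

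Genes of the anterior neural border, the nasal and lens placodes and the forebrain included SP8 and ZIC1, the most negative differences of the comparison. Of 22 measured factors, 10 were lower in the mandibular pools, 2 higher and 10 did not pass (median -0.28), and 9 to 10 were lower when 1 pool was left out. SP8, given above, was at least 18.9-fold above the mandibular pools (-4.05 ± 0.20, limma adjusted p = 5.77e-05). ZIC1, a zinc finger gene of the neural border, measured 4.5, 2.42 and 15.6 against 425, 344 and 186, at least 8.93-fold higher, with frontonasal pool 3 the lowest of its group. SIX3, a homeobox gene of forebrain and eye, measured 9.64, 16.6 and 4.25 against 217, 146 and 218, at least 5.65-fold. SOX3, a SOXB1 gene of neural and placodal progenitors, measured 22.9, 28.2 and 12.7 against 257, 189 and 352, at least 7.65-fold. All 4 lay below background in every mandibular pool.

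PAX6, required for lens and nasal placodes, measured 34.6, 24.1 and 47.2 against 156, 151 and 186 (-1.84 ± 0.18, limma adjusted p = 0.00154). ZIC2 measured 84.5, 112 and 95.2 against 535, 419.7 and 496 (-2.14 ± 0.13, adjusted p = 0.000187). NR2E1, a nuclear receptor of forebrain progenitors, and DMRT3, a doublesex-related gene of the olfactory region, were at least 2.79-fold and 4.86-fold above the mandibular pools. SIX6, a homeobox gene of the eye field, was at least 1.49-fold higher, and VAX1, of the ventral forebrain, at least 1.65-fold, the latter call lost without mandibular pools 1 or 3 or frontonasal pools 1 or 3 (limma adjusted p up to 0.0732). VAX1 also lost its call at pseudocount 1 (limma adjusted p = 0.138). The 2 members that were higher in the mandibular pools, EBF2 and EBF3, are helix-loop-helix factors of neurons and mesenchyme. EBF2 differed by 0.91 ± 0.13 (adjusted p = 0.00764). EBF3 differed by 0.64 ± 0.13 (adjusted p = 0.0453) and its call was lost without any 1 pool other than frontonasal pool 1 (limma adjusted p up to 0.15). OTX2, a head gap gene, measured 449, 556 and 654 against 571, 396 and 490.0, overlapping (0.18 ± 0.16, 95% interval -0.19 to 0.55).

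**Figure D2:**
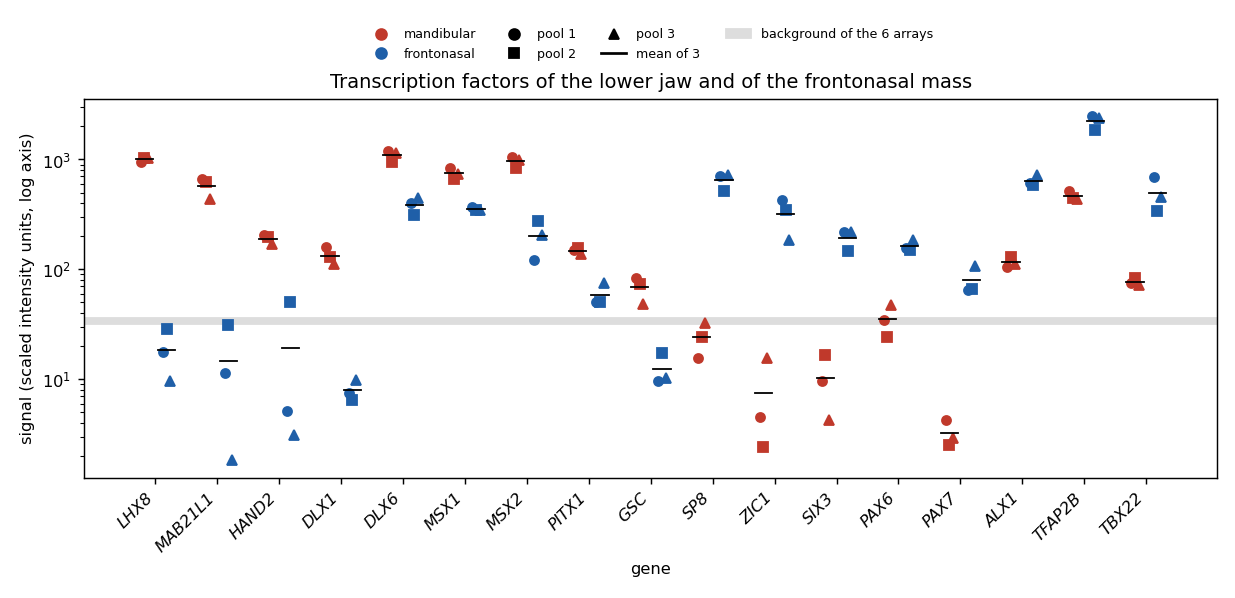
Signal (scaled intensity units, log axis) of 17 transcription factor genes in each mandibular (red) and frontonasal (blue) pool, with the pool number as the marker shape, the mean of 3 as a line and the range of array backgrounds as a grey band. From LHX8 to GSC the mandibular pools lie higher, and from SP8 to TBX22 the frontonasal pools do. Frontonasal pool 2 carries a HAND2 signal of 50.0 above the band.

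Forkhead, T-box, Iroquois and SOX genes, some of them members of the lists above, were called in both directions, with 5 of 53 measured higher, 5 lower and 43 not passing (median 0.07). Leaving out 1 pool gave 2 to 8 higher (fewest without mandibular pool 3, most without frontonasal pool 2) and 3 to 5 lower (fewest without mandibular pool 3). Of the lower genes, TBX22, SOX3 and SOX10 are given above. SOX8, a SOXE gene of crest and glia, was lower, with 77, 50.2 and 74.5 against 659, 369 and 458 (-2.60 ± 0.26, limma adjusted p = 0.00154). FOXI2, a forkhead gene of pharyngeal ectoderm and endoderm, measured 218, 258 and 199 against 108, 132 and 108 (0.86 ± 0.12, adjusted p = 0.00715). FOXC2, of perivascular and arch mesenchyme, differed by 1.17 ± 0.18 (adjusted p = 0.0133), a call lost without mandibular pools 1, 2 or 3 (limma adjusted p up to 0.0593). FOXL2, known from periocular and gonadal tissue, differed by 1.31 ± 0.25 (adjusted p = 0.0309), a call lost without mandibular pools 1 or 3 or frontonasal pools 1 or 3 (limma adjusted p up to 0.117). FOXO1, an effector of insulin signalling, was lower, at -1.14 ± 0.19 (adjusted p = 0.0161), a call lost without mandibular pool 3 or frontonasal pools 1 or 3 (limma adjusted p up to 0.0614). Of 35 measured HOX, MEIS and PBX genes only PBX3 was called, and none was lower, while leaving out 1 pool gave 0 to 3 higher (fewest in 5 of 6 fits, most without frontonasal pool 2) and 0 lower.

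Hedgehog signalling starts when SHH, secreted by epithelium and forebrain, binds PTCH1, and responding cells raise PTCH1 and the decoy HHIP. Of 17 measured pathway genes, 2 were higher in the mandibular pools, 0 lower and 15 did not pass (median 0.01), with 2 to 3 higher and 0 to 1 lower (most without frontonasal pool 2) when 1 pool was left out. PTCH1 measured 1983, 1765 and 1769 against 554, 748 and 644, without overlap (1.49 ± 0.13, limma adjusted p = 0.00082). HHIP measured 299, 284 and 234 against 40.5, 88.3 and 50.9 (1.97 ± 0.21, adjusted p = 0.00197). The ligand gene SHH measured 58.3, 54.4 and 50.2 against 24.3, 39.9 and 21.3, also without overlap (0.68 ± 0.15, adjusted p = 0.0547), and without frontonasal pool 2 it was called and at least 1.57-fold higher (0.86 ± 0.10, adjusted p = 0.00462). GLI1, a target and effector, was below background on all 6 arrays.

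BMP and TGF-beta genes gave 3 higher, 1 lower and 39 not passing of 43 measured (median 0.14), and leaving out 1 pool gave 2 to 7 higher (most without frontonasal pool 2) and 0 to 2 lower (fewest in 4 of 6 fits, most without frontonasal pool 2). Among ligands, BMP6 was lower, with 14.9, 16.1 and 17.5 against 53.6, 35.4 and 87.6 (-1.16 ± 0.23, limma adjusted p = 0.0346, a call lost without mandibular pools 1, 2 or 3 or frontonasal pool 1 (limma adjusted p up to 0.12)). BMP6 was below background in every mandibular pool, so its fitted difference depends on the pseudocount. BMP7 measured 253, 223 and 243 against 499.8, 309.8 and 461, also without overlap, and was called without frontonasal pool 2 (-0.96 ± 0.12, adjusted p = 0.00684). TGFB2 was higher, with 228, 158 and 191 against 68.6, 109.6 and 64.2 (1.12 ± 0.19, adjusted p = 0.0168), a call lost without mandibular pools 1 or 3 or frontonasal pools 1 or 3 (limma adjusted p up to 0.0683). BMP4 measured 29.4, 35.2 and 38.1 against 24.7, 78.99 and 34.04, highest on frontonasal pool 2 (-0.21 ± 0.28, 95% interval -0.85 to 0.44).

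Among BMP antagonists, FST, the activin and BMP binder follistatin, was higher in the mandibular pools, with 152, 188 and 130.5 against 20, 23.3 and 34.3 (2.05 ± 0.17, limma adjusted p = 0.0006). NOG, noggin, measured 36.7, 15 and 35.8 against 12.9, 23.6 and 29.9, overlapping (95% interval -0.35 to 0.81). Among targets, ID1, a helix-loop-helix inhibitor induced by BMP, measured 2552, 1954 and 2577 against 751, 724 and 976 (1.51 ± 0.17, adjusted p = 0.00267). Its relatives ID2 and ID4, and the pseudoreceptor BAMBI, were called only without frontonasal pool 2, at 1.38 ± 0.14, 1.13 ± 0.13 and 2.15 ± 0.20 (adjusted p = 0.00277, 0.00381 and 0.00164). In each of these 3 genes pool 2 lay between the other frontonasal pools and the mandibular pools.

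The WNT list held genes of both directions, 3 higher, 4 lower and 49 not passing of 56 measured (median 0.05). Leaving out 1 pool gave 2 to 4 higher and 2 to 4 lower (fewest without mandibular pools 1 or 2). WNT2B, a ligand, measured 104, 117 and 105 against 2.22, 5.14 and 2.27 and was at least 3.21-fold above the frontonasal pools (2.70 ± 0.11, limma adjusted p = 2.12e-05). NOTUM, an enzyme that inactivates WNT proteins, measured 277, 311 and 314 against 66.2, 108 and 139 (1.44 ± 0.23, adjusted p = 0.0137), a call lost without mandibular pools 2 or 3 (limma adjusted p up to 0.0621). DKK4, a secreted inhibitor that was not on the list but was among the leading genes, measured 101, 100.3 and 108 against 4.79, 16.7 and 5.56, at least 3.05-fold higher. The secreted decoys SFRP1 and SFRP2 ran the other way, with 220.2, 239 and 224 against 561, 474 and 489 for SFRP1 and 752, 748 and 749 against 1748, 1449 and 1575 for SFRP2. They differed by -1.10 ± 0.10 and -1.07 ± 0.09 (adjusted p = 0.00095 and 0.000527). The receptors FZD3 and FZD5 were lower, at -0.55 ± 0.09 and -1.33 ± 0.24. The call of FZD3 was lost without mandibular pools 1 or 2 (limma adjusted p up to 0.0624), and that of FZD5 was lost without mandibular pools 1, 2 or 3 or frontonasal pool 1 (limma adjusted p up to 0.0996). With the mean of their probe sets neither was called (-0.13 and -0.45, limma adjusted p = 0.432 and 0.21). WNT5A, a ligand of jaw outgrowth, measured 1621, 1454 and 1338 against 1058, 964 and 1042, without overlap, but missed the threshold (0.52 ± 0.11, adjusted p = 0.0504). WNT11 measured 34.3, 91.8 and 95.8 against 80.7, 53.6 and 68.8, overlapping (95% interval -0.62 to 0.68).

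FGF, retinoid and notch genes that passed the test were lower in the mandibular pools. Of 36 measured FGF pathway genes, 4 were lower and 0 higher (median -0.07), and with 1 pool left out 0 to 1 higher (most without frontonasal pool 2) and 2 to 4 lower (fewest without mandibular pools 2 or 3). FGF8, the ligand of nasal pit and oral ectoderm, measured 55.99, 41.1 and 47.2 against 151, 85.5 and 132 (-1.09 ± 0.18, limma adjusted p = 0.0164), a call lost without mandibular pools 2 or 3 or frontonasal pool 3 (limma adjusted p up to 0.0727). FGF16, a related ligand, was dim, at 4.56, 5.25 and 5.38 against 19.6, 35.5 and 38.6 (-1.14 ± 0.15, adjusted p = 0.00556). SPRY2, a feedback inhibitor induced by FGF, measured 574, 682 and 612 against 1000, 1034 and 1034 (-0.70 ± 0.09, adjusted p = 0.00469). FLRT3, a membrane protein induced by FGF, differed by -0.58 ± 0.10 (adjusted p = 0.0165), and its call was lost without mandibular pools 2 or 3 (limma adjusted p up to 0.0686).

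Of 20 measured retinoid genes 2 were lower and 0 higher (median -0.20). CYP26A1, which degrades retinoic acid, measured 32.5, 43.98 and 52.5 against 199.8, 367 and 160.2 (-2.06 ± 0.29, limma adjusted p = 0.008). ALDH1A3, which makes it, measured 85.04, 93.9 and 67.8 against 279, 187 and 243 (-1.35 ± 0.22, adjusted p = 0.0157), a call lost without mandibular pools 1 or 3 or frontonasal pools 1 or 3 (limma adjusted p up to 0.0662). CYP26A1 and ALDH1A3, 1 degrading and 1 synthesising enzyme, thus both had more signal in the frontonasal mass. Their relatives ALDH1A1, ALDH1A2, CYP26B1 and CYP26C1 were not called (-0.87 ± 0.28, -0.83 ± 0.58, -0.24 ± 0.15 and -0.16 ± 0.13). Of 18 measured notch genes 2 were lower and 0 higher (median -0.13). The ligand DLL1 measured 87.04, 98.4 and 78.9 against 256, 260.3 and 348 (-1.54 ± 0.13, adjusted p = 0.0006). The target HES5 measured 71.5, 59.8 and 59.1 against 192, 171 and 199 (-1.36 ± 0.14, adjusted p = 0.00156). Each of these genes had another probe set, above background on all 6 arrays, that was not called.

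In the endothelin pathway, which patterns the lower arch, HAND2 and GSC were the 2 higher genes of 12 measured and EDNRA the 1 lower one (median 0.11), with 1 to 3 higher (fewest without mandibular pools 1 or 2 or frontonasal pool 1) and 1 lower when 1 pool was left out. EDNRA, the receptor on crest cells, measured 573, 503 and 533 against 1265, 941 and 1219, without overlap (-1.06 ± 0.14, limma adjusted p = 0.00585). The ligand gene EDN1 measured 70.7, 58.5 and 60.1 against 43.2, 46.7 and 44.7, also without overlap, and missed the threshold (0.37 ± 0.08, adjusted p = 0.057). The receptor gene was thus called lower while the ligand gene was not called, and their difference from each other was not tested. HAND2 lost its call without single pools and at pseudocount 1, as given above.

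Among other growth factor genes, 4 were higher, 1 lower and 49 did not pass of 54 measured (median -0.05). Leaving out 1 pool gave 2 to 6 higher (fewest without mandibular pools 1 or 2) and 1 to 2 lower (most without frontonasal pool 3). VEGFC, a ligand of lymphatic and vascular growth, measured 455, 469 and 570.0 against 70, 178 and 112 (1.99 ± 0.25, limma adjusted p = 0.00484). RET, the receptor of GDNF family ligands, measured 165, 157 and 194 against 16.9, 41.6 and 20.7 (2.19 ± 0.20, adjusted p = 0.00105). The other 2 probe sets of RET were not called. ANGPT2, a vascular ligand, and HGF, a ligand that attracts muscle precursors and axons, were higher by 0.87 ± 0.15 and 0.68 ± 0.14. The call of ANGPT2 was lost without mandibular pools 1 or 2 or frontonasal pools 1 or 2 (limma adjusted p up to 0.0751), and that of HGF was lost without any 1 pool other than frontonasal pool 2 (limma adjusted p up to 0.154). IGFBP2, a binding protein of insulin-like growth factors, was the lower gene, with 1303, 1105 and 1193 against 2555, 2250 and 2677 (-1.04 ± 0.10, adjusted p = 0.00114).

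Guidance genes numbered 4 higher, 3 lower and 46 not passing of 53 measured (median -0.03). Without 1 pool at a time there were 2 to 3 higher (fewest without mandibular pools 1 or 2 or 3) and 1 to 3 lower (fewest without mandibular pools 2 or 3 or frontonasal pool 1). EPHA3, an ephrin-A receptor, measured 797, 662 and 777 against 103, 154 and 90.5 (2.55 ± 0.18, limma adjusted p = 0.000265). EFNA5, an ephrin-A ligand, measured 804, 687 and 799 against 1531, 1169 and 1374 (-0.81 ± 0.12, adjusted p = 0.00903). With the mean of its probe sets EFNA5 was not called (-0.35, adjusted p = 0.0773). UNC5C, a netrin receptor, measured 525, 419 and 447 against 132, 196 and 168 (1.41 ± 0.16, adjusted p = 0.00327). EFNB1, an ephrin-B ligand of crest cells, differed by 0.52 ± 0.10 (adjusted p = 0.0272), a call lost without any 1 pool other than frontonasal pool 2 (limma adjusted p up to 0.101). EPHB1 and PLXNC1, an ephrin-B receptor and a semaphorin receptor, were lower, at -0.71 ± 0.14 and -0.41 ± 0.09. The call of EPHB1 was lost without mandibular pools 2 or 3 or frontonasal pools 1 or 3 (limma adjusted p up to 0.116), and that of PLXNC1 was lost without any 1 pool other than frontonasal pool 2 (limma adjusted p up to 0.164). With the mean of their probe sets neither was called (-0.37 and -0.27, limma adjusted p = 0.2 and 0.184). CXCR4, a chemokine receptor, was called higher (0.86 ± 0.17, adjusted p = 0.0377) although below background on all 6 arrays, a call lost without any 1 pool other than frontonasal pool 1 (limma adjusted p up to 0.134).

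Adhesion genes gave 2 higher and 5 lower of 61 measured (median -0.09). Without 1 pool at a time there were 0 to 3 higher (fewest in 5 of 6 fits) and 1 to 4 lower (fewest without mandibular pool 2). CDH2, N-cadherin of neural tissue and mesenchyme, measured 297, 281 and 303 against 626, 748 and 542 (-1.07 ± 0.13, limma adjusted p = 0.00448). CDH1, E-cadherin of epithelium, differed by -0.86 ± 0.17 (adjusted p = 0.041) and its call was lost without any 1 pool other than frontonasal pool 1 (limma adjusted p up to 0.143). CDH11, a cadherin of crest mesenchyme, differed by -0.59 ± 0.10 (adjusted p = 0.0152) and its call was lost without mandibular pools 2 or 3 or frontonasal pool 1 (limma adjusted p up to 0.0566). ITGA2, a collagen receptor subunit, was lower, at -0.60 ± 0.10, a call lost without mandibular pools 1, 2 or 3 or frontonasal pool 1 (limma adjusted p up to 0.0694). CDH5, the cadherin of endothelium, was higher and is given with the vascular genes.

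Extracellular matrix genes were called lower more often than higher, with 11 lower, 2 higher and 67 not passing of 80 measured (median -0.19). In the 6 fits that left out 1 pool, 8 to 12 were lower, and 2 to 7 higher, the most in each direction without frontonasal pool 2. The collagen VI genes COL6A1 and COL6A2 encode chains of one microfibril. COL6A1 measured 22.01, 25.3 and 24.8 against 226, 124 and 157, at least 4.86-fold above the mandibular pools. COL6A2 measured 95.9, 102 and 94.1 against 337, 235 and 253 (-1.35 ± 0.13, limma adjusted p = 0.00133). Of 2 further COL6A1 probe sets and 1 further COL6A2 probe set none was called. The third chain, COL6A3, measured 232, 156 and 152 against 449, 277 and 393, without overlap, and was called only without frontonasal pool 2 (-1.18 ± 0.22, adjusted p = 0.0331).

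POSTN, a matricellular protein of fibrous mesenchyme, measured 515, 580.4 and 476 against 1214, 1492 and 1361 (-1.34 ± 0.11, limma adjusted p = 0.000593). THBS4, a thrombospondin, measured 709, 709.6 and 741 against 1898, 1702 and 2076 (-1.37 ± 0.12, adjusted p = 0.00094). OPTC, a small proteoglycan known from the eye, measured 12.6, 10.96 and 13.7 against 160.0, 115 and 221, at least 4.74-fold above the mandibular pools. The fibril-associated collagen COL14A1 was lower, at -0.89 ± 0.10, and SPON2, a spondin, by -1.26 ± 0.11 (adjusted p = 0.0034 and 0.0006). SPON2 was dim and was removed by the filter on dim probe sets. Its call was kept under the 15 other alternatives, but its difference ran from -1.997 to -0.5993 over them. A second SPON2 probe set, above background on 2 of the 6 arrays, had means of 11.9 against 37.66. It was not called (-0.9691, limma adjusted p = 0.1907). AGRN, agrin of basement membranes, differed by -0.89 ± 0.11 (adjusted p = 0.00421), but its other 2 probe sets were not called and the mean of its probe sets was not either (-0.31, adjusted p = 0.185). The collagen COL12A1 (-0.98 ± 0.15), the proteoglycans LUM (-0.55 ± 0.10) and SDC2 (-0.72 ± 0.11) were also lower. Their calls were lost without mandibular pools 2 or 3 (limma adjusted p up to 0.0579) for COL12A1, lost without any 1 of the 6 pools (limma adjusted p up to 0.0963) for LUM and lost without mandibular pool 2 (limma adjusted p = 0.0553) for SDC2.

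COL9A1, a cartilage and eye collagen, and COL8A1, of vessels and cornea, were the 2 matrix genes that were higher in the mandibular pools. COL9A1 measured 166, 173 and 135 against 10.9, 23.9 and 17.4, at least 4.64-fold higher (2.39 ± 0.18, limma adjusted p = 0.000382), but its other 2 probe sets were not called. COL8A1 measured 72.8, 76.9 and 82.8 against 36.5, 36.2 and 24.8 (0.96 ± 0.12, adjusted p = 0.0051). Its other 2 probe sets were not called, and with the mean of its probe sets neither was the gene (0.29, adjusted p = 0.375). Matrix proteases and inhibitors gave 6 lower and 1 higher of 45 measured, and leaving out 1 pool gave 0 to 2 higher (fewest in 4 of 6 fits, most without frontonasal pool 2) and 1 to 6 lower (fewest without mandibular pool 2). ADAMTSL1, a secreted ADAMTS-like protein, was lower with 64.8, 54.4 and 47.7 against 244, 154 and 162 (-1.48 ± 0.17, adjusted p = 0.00305). None of its other 4 probe sets was called, nor was the gene with the mean of all of them (-0.27, adjusted p = 0.0881). PLAU, the urokinase protease, and SERPINE2, an inhibitor of such proteases, were lower, at -0.63 ± 0.10 and -0.64 ± 0.12. The call of PLAU was lost without mandibular pools 2 or 3 or frontonasal pools 1 or 3 (limma adjusted p up to 0.0628), and that of SERPINE2 was lost without mandibular pools 1 or 2 or frontonasal pools 1 or 3 (limma adjusted p up to 0.0997).

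**Figure D3:**
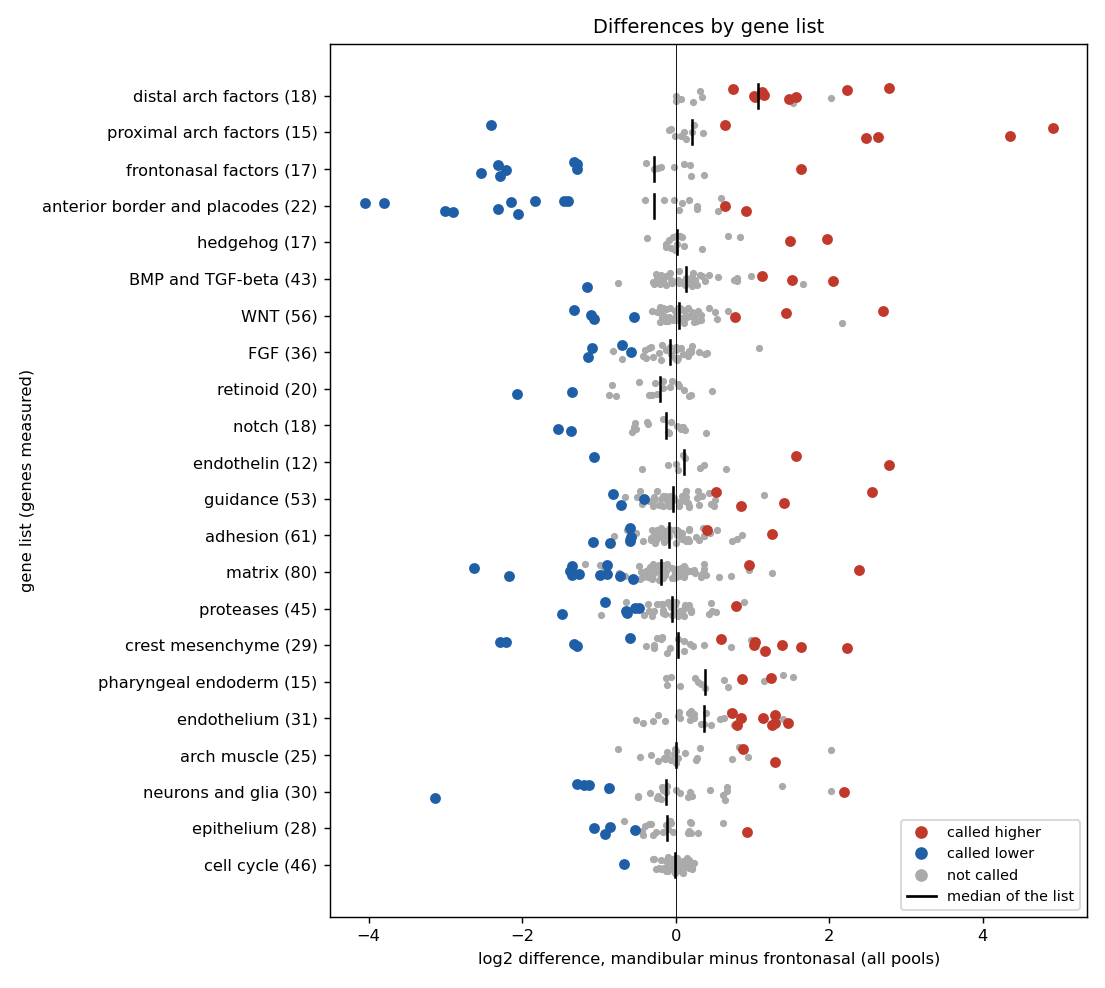
Log2 difference, mandibular minus frontonasal (horizontal axis), of every measured gene of 22 gene lists, with calls in red (higher) and blue (lower), other genes in grey and the median of each list as a bar. The median of the distal arch factors is 1.08 and those of the frontonasal and anterior border factors are both -0.28, whereas cell cycle genes lie near 0.

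Neural crest mesenchyme genes were split, with 7 higher, 5 lower and 17 not passing of 29 measured (median 0.03). Without 1 pool at a time there were 5 to 8 higher and 2 to 5 lower (fewest without mandibular pools 2 or 3). Beside MSX1, MSX2, PRRX1, TWIST2, PAX7 and TFAP2B, already given, they held SNAI1, a repressor that acts in epithelial to mesenchymal transition. SNAI1 measured 981, 1006 and 839 against 346, 462 and 270.3 (1.38 ± 0.17, limma adjusted p = 0.00491). SNAI2, its paralogue, measured 293, 248 and 234 against 164, 178 and 152 (0.60 ± 0.10, adjusted p = 0.0206), a call lost without mandibular pools 1 or 2 or frontonasal pools 1 or 3 (limma adjusted p up to 0.0708). Skeletal genes, including COL9A1, gave 1 higher, 0 lower and 28 not passing of 29.

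Endothelial genes that passed the test were all higher in the mandibular pools. Of 31 measured, 8 were higher, 0 lower and 23 did not pass (median 0.37). The count depended on single pools, with 3 higher without frontonasal pool 1 or 3, 4 without any 1 mandibular pool and 13 without frontonasal pool 2. CD34, a sialomucin of endothelium and blood progenitors, measured 306, 324 and 355 against 88.97, 130.4 and 109 (1.47 ± 0.15, limma adjusted p = 0.00154). SOX18, a regulator of vessel growth, measured 183, 220.3 and 222 against 79.4, 83.3 and 64.4 (1.29 ± 0.13, adjusted p = 0.0017). ECSCR, an endothelial surface protein, measured 144, 169 and 156 against 48.6, 69.5 and 46.5 (1.29 ± 0.13, adjusted p = 0.00155).

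CDH5, the endothelial cadherin, measured 1059, 944 and 1009 against 339.9, 645 and 314, highest among frontonasal pools in pool 2 (1.25 ± 0.23, limma adjusted p = 0.0296), a call lost without any 1 pool other than frontonasal pool 2 (limma adjusted p up to 0.108). CLDN5, of endothelial tight junctions, and FLT1, a VEGF receptor, were higher by 1.13 ± 0.20 and 0.80 ± 0.16. The call of CLDN5 was lost without any 1 pool other than frontonasal pool 2 (limma adjusted p up to 0.0881), and that of FLT1 was lost without mandibular pools 1 or 3 or frontonasal pools 1 or 3 (limma adjusted p up to 0.133). APLN, a peptide of sprouting vessels, and SOX7 were higher by 0.73 ± 0.12 and 0.85 ± 0.14. The call of APLN was lost without mandibular pools 1 or 2 or frontonasal pools 1 or 3 (limma adjusted p up to 0.071), and that of SOX7 was lost without mandibular pools 2 or 3 or frontonasal pools 1 or 3 (limma adjusted p up to 0.0686). The receptor gene KDR measured 134, 134 and 138 against 53.7, 127 and 55.7 and was called without frontonasal pool 2 (1.10 ± 0.08, adjusted p = 0.000615). PECAM1, a further defining marker, measured 36.6, 51.6 and 38.7 against 35.95, 32.1 and 22.9, hardly separated and not called. The summed signal of the list was 6404 to 6493 in mandibular pools, and 3882, 5303 and 3939 in frontonasal pools 1, 2 and 3.

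Red cell genes gave 0 higher and 2 lower of 20 measured, and with 1 pool left out 0 higher and 0 to 2 lower (fewest in 5 of 6 fits). SLC4A1, the red cell anion exchanger, was lower, at -0.87 ± 0.17 (limma adjusted p = 0.0385), a call lost without any 1 pool other than frontonasal pool 2 (limma adjusted p up to 0.14). ANK1, ankyrin of the red cell membrane, was lower, at -0.52 ± 0.10 (adjusted p = 0.0393), a call lost without any 1 pool other than frontonasal pool 2 (limma adjusted p up to 0.131), and with the mean of its probe sets the direction turned. The summed red cell signal was 24642 to 27793 in mandibular and 31264 to 31601 in frontonasal pools, without overlap. In maxillary pools 1 to 3 it was 31849, 25659 and 25807, so pools of 1 bud spanned the gap between these ranges. Of 18 measured leukocyte genes, limma called 0 with all pools and 1 higher without frontonasal pool 2.

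Pharyngeal endoderm, which lines the arch, gave 2 higher and 0 lower of 15 measured with all pools (median 0.39), and 9 higher without frontonasal pool 2. PAX9, of pharyngeal endoderm and arch mesenchyme, measured 83.5, 123 and 117 against 31, 38.01 and 39.2 (1.24 ± 0.14, limma adjusted p = 0.00298). FOXI2 was the other. The summed signal of the list was 1635 to 1855 in mandibular pools, 798 and 839 in frontonasal pools 1 and 3, and 2271 in frontonasal pool 2. The groups overlapped through pool 2 alone.

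Arch muscle genes gave 2 higher and 0 lower of 25 measured, and with 1 pool left out 2 to 4 higher (most without frontonasal pool 2) and 0 to 1 lower (most without frontonasal pool 2). MYF5, a determination factor of the muscle that migrates into the arch, measured 54.9, 61.5 and 49.2 against 27.98, 19.4 and 21.1, at least 1.63-fold higher (limma adjusted p = 0.0077). TNNC2, a fast muscle troponin, measured 121, 154 and 164 against 51.7, 54.6 and 42.9 (1.30 ± 0.13, adjusted p = 0.00145). CSRP3, a muscle LIM protein listed with heart genes, measured 80.1, 79.5 and 90.97 against 7.85, 12.9 and 7.37, at least 2.46-fold higher. MYL4, an embryonic myosin light chain listed with heart genes, ran the other way with 138, 111 and 132 against 629, 494 and 707 (-2.12 ± 0.17, adjusted p = 0.000527). MYOD1, the later determination factor, was below background on all 6 arrays, as were the lens markers CRYAA and CRYBB1.

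Surface and oral epithelium genes gave 1 higher and 4 lower of 28 measured, and with 1 pool left out 1 higher and 1 to 3 lower (fewest without mandibular pools 1 or 3 or frontonasal pool 3). KRT14, a basal keratin, was higher, with 624, 599.5 and 594 against 281, 362 and 294 (0.93 ± 0.14, limma adjusted p = 0.00967). PKP1, a desmosomal plakophilin, was below background in the mandibular pools and at least 1.28-fold above the mandibular pools. DSP, desmoplakin, and ELF3, an epithelial ETS factor, were lower, at -0.53 ± 0.11 and -0.92 ± 0.17. The call of DSP was lost without any 1 pool other than frontonasal pool 2 (limma adjusted p up to 0.139), and that of ELF3 was lost without any 1 pool other than mandibular pool 2 (limma adjusted p up to 0.0675). Epithelial genes thus lay on both sides.

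Neuron and glia genes gave 5 lower and 1 higher of 30 measured (median -0.12), with 1 to 4 higher (most without frontonasal pool 2) and 4 to 6 lower when 1 pool was left out. NHLH2, a helix-loop-helix gene of young neurons, measured 11.1, 23.7 and 28.3 against 393, 230.0 and 302, at least 8.94-fold above the mandibular pools. A second NHLH2 probe set, above background on all 6 arrays, was not called, with means of 50.8 against 57.4. ELAVL2, a neuronal RNA binding protein, was lower, at -0.87 ± 0.13 (limma adjusted p = 0.0123), a call lost without mandibular pool 1 (limma adjusted p = 0.0511). NEUROG1 and NEUROG2, determinants of sensory neurons, were called lower but dim, with 26.9, 39.6 and 21.9 and 35.6, 28.9 and 24.4 in the frontonasal pools. The backgrounds of these pools were 36.3, 32.6 and 32.7. NEUROG2 was thus below background on all 6 arrays, and NEUROG1 was above it only on frontonasal pool 2. Of the ELAV, stathmin, neurofilament and synaptic genes on the list only ELAVL2 was called with all pools, and the differences of the others lay on both sides. ELAVL4, a relative of ELAVL2, and STMN3, a neuronal stathmin, differed by -0.49 ± 0.17 and -0.49 ± 0.32. STMN2, its paralogue, measured 271, 145 and 190.2 in the mandibular pools against 125.0, 116 and 119.8, and NEFM, a neurofilament, 172, 173 and 198 against 88.3, 166 and 82.5. SOX10 and RET, on this list, are given above, and SOX10 lost its call without single pools and with the mean of its probe sets.

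Genes of cell cycle and replication were called at about the background share. Of 46 measured, 1 was lower and 0 higher (median -0.01). The called gene was CCND3, a D-type cyclin, at -0.67 ± 0.13 (limma adjusted p = 0.0388), a call lost without any 1 pool other than mandibular pool 3 (limma adjusted p up to 0.108). Hypoxia, immediate early and heat shock genes gave 1 higher and 1 lower of 45, and with 1 pool left out 0 to 3 higher (fewest in 4 of 6 fits, most without frontonasal pool 2) and 0 lower. KLF2, a flow-responsive factor, was higher by 1.52 ± 0.28 and EGR1, an immediate early gene, lower, at -1.47 ± 0.28. The call of KLF2 was lost without mandibular pools 1 or 2 or frontonasal pools 1 or 3 (limma adjusted p up to 0.103), and that of EGR1 was lost without any 1 of the 6 pools (limma adjusted p up to 0.113). Genes of eye and lens gave 2 lower and 0 higher of 27, and liver genes 1 lower and 0 higher of 43.

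Several leading genes belonged to none of these groups. BHLHE22, a helix-loop-helix repressor of neurons, measured 330.3, 319 and 411 against 43.1, 41.3 and 43.9 (2.64 ± 0.11, limma adjusted p = 3.29e-05). HDAC9, a class IIa histone deacetylase, measured 408, 429 and 417 against 62.7, 63.8 and 58.4 (2.48 ± 0.07, adjusted p = 8.93e-06), though its other 2 probe sets were not called. CHODL, the lectin chondrolectin, measured 1448, 1229 and 1558 against 171, 352 and 250.0 (2.43 ± 0.22, adjusted p = 0.00094). NPY, the neuropeptide Y precursor, measured 289, 267 and 324 against 31.5, 49.8 and 46.03 (2.42 ± 0.14, adjusted p = 0.000125). Further genes higher in the mandibular pools were MALL, a membrane raft protein, and PLA2G10L, a phospholipase relative. Both were below background in the frontonasal mass and at least 3.92-fold and 2.79-fold higher. KCNAB1, a potassium channel subunit, differed by 2.07 ± 0.31 (adjusted p = 0.0112), and its call was lost in the fit to 6 arrays only (adjusted p = 0.0541). That fit, made without the maxillary arrays, lost the calls of 39 of the 150 named called genes. NDNF, a secreted neuron-derived factor, differed by 2.05 ± 0.39 (adjusted p = 0.0331), a call lost without any 1 pool other than frontonasal pool 2 (limma adjusted p up to 0.122).

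Of the leading frontonasal genes outside the lists, CPNE4, a copine of calcium-dependent membrane binding, measured 111, 123 and 112 against 919.6, 688 and 783 (-2.62 ± 0.17, limma adjusted p = 0.000187). CHGA, the granule protein chromogranin A, measured 37.7, 47.4 and 40.1 against 444, 245 and 331 (-2.59 ± 0.18, adjusted p = 0.000265). ANTXR1, a collagen-binding receptor that also binds anthrax toxin, measured 69.2, 73.7 and 62.3 against 473, 348 and 439 (-2.36 ± 0.13, adjusted p = 0.000119). DOC2B, a calcium sensor of secretion, measured 89.6, 92.6 and 91.6 against 508, 496 and 571 (-2.33 ± 0.14, adjusted p = 0.000187). HRASLS, a phospholipase-type enzyme, RASD2, a small GTPase, and IL16, a cytokine precursor, were below background in the mandibular pools. They were at least 3.87-fold, 3.01-fold and 4.79-fold above the mandibular pools. CACNG3, a calcium channel and glutamate receptor subunit, differed by -2.33 ± 0.29 (adjusted p = 0.00437). SCARA5, a ferritin receptor, was at least 5-fold above the mandibular pools, a call lost without mandibular pools 2 or 3 or frontonasal pools 1 or 3 (limma adjusted p up to 0.0825). SCARA5 also lost its call at pseudocount 1 (limma adjusted p = 0.0993).

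Leaving out frontonasal pool 2 changed which genes passed. Of the 538 genes called with all pools, 422 were called in the same direction without it, 116 were no longer called (55 higher and 61 lower) and 0 were called the other way. None of the 538 overlapped between the groups, so leaving out a pool could not turn their direction, and this 0 is no result. A further 186 genes were called only without it, 144 higher in the mandibular pools and 42 lower. Of the 150 genes that stood out on pool 2 within its group, 49 had a mandibular mean at least 1 log2 unit above that of frontonasal pools 1 and 3, and 101 lay within 1. Of the 150, 50 were called higher in the mandibular pools once pool 2 was left out, against 4 with it. Over all genes, 327 (2.51%) were called higher without it and 238 (1.83%) with it. As the 150 were picked for a high pool 2, leaving it out had to raise their differences, and these counts are no independent result. Examples of genes gained without pool 2, and of genes in excess on it, follow.

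**Figure D4:**
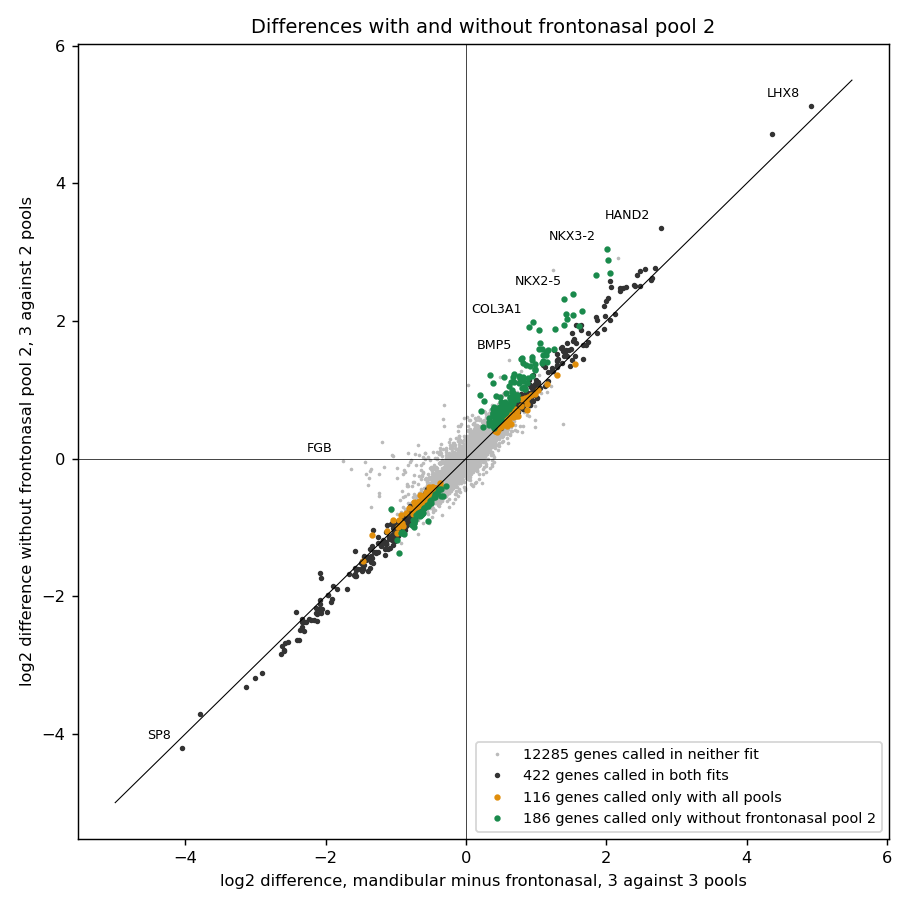
Log2 difference, mandibular minus frontonasal, of each gene without frontonasal pool 2 (vertical axis) against that with all pools (horizontal axis), with the line of equal values. The 422 genes called both ways are black, the 116 called only with all pools orange and the 186 called only without pool 2 green. Green points lie mostly above the line, led by NKX3-2, and FGB lies left of the line near 0 on the vertical axis.

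The gained genes included factors known from the arch. NKX3-2, which marks the jaw joint and also visceral mesoderm, measured 266, 272 and 317 against 18.01, 305 and 22.5, and without pool 2 it was at least 8.25-fold above the frontonasal pools (3.05 ± 0.14, limma adjusted p = 0.000115). ISL1, a LIM homeobox gene of arch epithelium, cardiac progenitors and motor neurons, measured 426, 462 and 448 against 47.6, 363 and 45.02 (2.89 ± 0.09, adjusted p = 3.35e-05). BARX1, a homeobox gene of molar-region jaw mesenchyme in mammals and of stomach mesenchyme, measured 1825, 1413 and 1642 against 362, 1214 and 373 (2.09 ± 0.15, adjusted p = 0.000554). In all 3, frontonasal pools 1 and 3 lay close together and pool 2 near the mandibular pools, and with all pools none passed (adjusted p = 0.262, 0.161 and 0.114).

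NKX2-5, a homeobox gene of heart and pharynx, measured 55.2, 86.2 and 93.4 against 2.42, 90.7 and 1.05, at least 2.22-fold higher without pool 2 (2.39 ± 0.18, limma adjusted p = 0.000633). FOXA2, of endoderm, measured 73.9, 69.3 and 78.1 against 28.98, 167 and 23.2, at least 2.14-fold (adjusted p = 0.01). GATA6 and HHEX, of endoderm and heart, differed by 1.21 ± 0.17 and 0.83 ± 0.12 (adjusted p = 0.0111 and 0.0115), both highest on frontonasal pool 2 among the 6 arrays. HOXB1, a hindbrain and posterior arch gene, measured 82.9, 72.6 and 67.5 against 32.4, 201 and 30.3. These calls rest on frontonasal pools 1 and 3. The endoderm list was summed highest on pool 2, and the part of that in these calls was not tested.

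Signalling genes gained in the same way were the ligand BMP5, with 62.3, 56.9 and 57.4 against 11.1, 90.04 and 11.4 (1.46 ± 0.10, limma adjusted p = 0.000364), and the receptor FGFR3, with 712, 634 and 519.9 against 189.9, 583 and 198 (1.59 ± 0.14, adjusted p = 0.00141). PTN, a heparin-binding growth factor, measured 841, 624 and 546 against 107, 325 and 239, without overlap, and differed by 1.93 ± 0.33 (adjusted p = 0.0249). DKK3, a secreted WNT modulator, differed by 1.11 ± 0.09 (adjusted p = 0.000883). Among matrix genes the fibrillar collagens COL3A1 and COL5A2 were gained, at 1.98 ± 0.20 and 1.59 ± 0.19 (adjusted p = 0.00263 and 0.00473). COL3A1 measured 1072, 1031 and 894 against 181, 2172 and 316, so pool 2 lay above every mandibular pool. ANXA1, an annexin, and SPINK5, a protease inhibitor of epithelia, were gained at 2.70 ± 0.14 and 2.66 ± 0.18, and the neuropeptide gene GAL at least 5.08-fold. PKDCCA, a secreted kinase, differed by 2.32 ± 0.17 and the stress factor ATF3 by 2.11 ± 0.28.

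Fewer genes were gained as lower in the mandibular pools. VCAN, the large proteoglycan versican, measured 976, 717 and 849.6 against 1756, 1082 and 1494 and differed by -0.93 ± 0.15 without pool 2 (limma adjusted p = 0.0176). NOTCH2, a notch receptor, differed by -0.67 ± 0.08 (adjusted p = 0.00598), and DAB1, an adaptor of reelin signalling, by -0.96 ± 0.13 (adjusted p = 0.00929). TFAP2E, an AP-2 factor of the olfactory system, measured 3.8, 3.14 and 3.68 against 38.1, 5.58 and 31.1, and pool 2 there resembled the mandibular pools. NEUROD1, a neuronal helix-loop-helix gene, was below background on all 6 arrays. PNOC, a neuropeptide precursor, was at least 1.85-fold above the mandibular pools in frontonasal pools 1 and 3. Other gained lower genes were HMP19, VTG1, the yolk precursor vitellogenin, RAI2 and LRRC8D, from -1.08 ± 0.21 for HMP19 to -0.94 ± 0.18 for LRRC8D.

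The remaining list members gained as higher covered several groups, with differences without pool 2 from 0.49 ± 0.09 for NID1, a basement membrane linker, to 1.94 ± 0.23 for SOX17, an endoderm and vessel factor. Of vascular genes they held FLT4, TIE1 and PODXL, of matrix genes LAMA4 and HAPLN1, and of factors of the arch and endoderm NKX2-3 and MEIS2. Of ligands and receptors they held KITLG, GFRA1, EDNRB and the retinol transporter STRA6, and of adhesion genes PCDH7 and CNTN4. The others were FOXP1, ADAM22, CTSK, TNNT2, CEBPA and HSPB1. The remaining members gained as lower were CDON, a hedgehog coreceptor, FRAS1, PROX1 and RBM24, from -0.45 ± 0.09 for CDON to -0.90 ± 0.15 for RBM24. All adjusted p of these genes in limma are under the threshold without pool 2 and above it with all pools.

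The genes furthest in excess on pool 2 are given as values, with no test, and several of them, such as RELN and OIT3, were also above background on the other arrays. RELN, the guidance protein reelin, reached 1753 on pool 2 against 98.9 on the next highest of the 9 arrays. AvBD10, a beta-defensin, measured 11.2, 621 and 14.6 in the frontonasal pools, and GCG, the glucagon precursor, 58.1, 551 and 34.7. The remaining genes of the 15 that rose furthest above the other arrays were FGG, LCAT, SERPINA10, F2, APOA2, BAAT, AGT, GPD1L2, OIT3 and TSPAN1, most of them known from liver. The other lists of trunk tissue were also highest on pool 2. Summed gut, lung and pancreas genes reached 9514, against 4903 to 7346 elsewhere. Summed heart genes reached 4844, against 2219 to 3200, and summed kidney, coelom, limb and trunk genes 2904, against 1486 to 2069. The heart marker MYL2 measured 32.7 on pool 2, just above its background of 32.6, and was below background on the 8 other arrays. The heart marker NPPA was above background on 4 arrays, highest on pool 2 at 64.2 and next at 50.1 on frontonasal pool 1. NKX2-5 did not single out pool 2, with 90.7 there and 93.4 in mandibular pool 3.

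**Figure D5:**
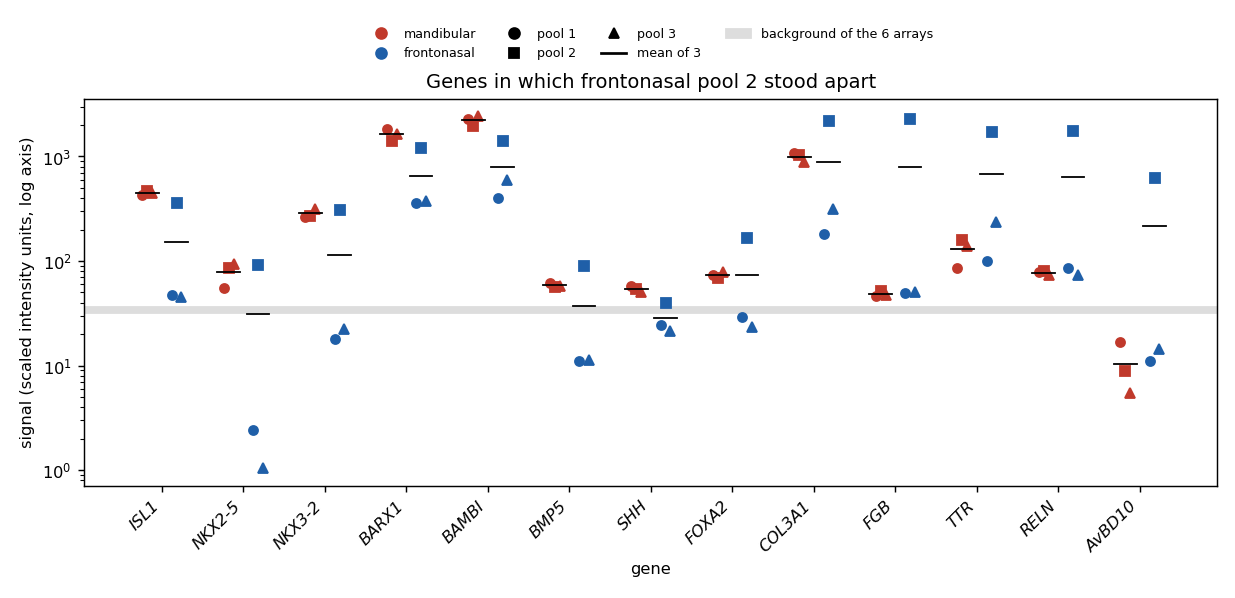
Signal (scaled intensity units, log axis) of 13 genes in each mandibular (red) and frontonasal (blue) pool, with marker shapes for pools 1 to 3, means as lines and the range of array backgrounds as a grey band. Pool 2 of the frontonasal mass (square) lies between the other frontonasal pools and the mandibular pools for ISL1, BARX1, BAMBI and SHH, and within the mandibular range for NKX2-5 and NKX3-2. For BMP5 and from FOXA2 to AvBD10 it lies above all the other pools shown.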

How the data were processed

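Expression in pools of facial prominences from untreated chick embryos was measured on Affymetrix chicken arrays, 1 per pool, and groups were taken from the sample titles. The deposited values are linear intensity values of 38535 probe sets per array, scaled by the authors to a common level, as the deposited columns show (they share 1 mean once the highest and lowest 2% of values are removed). The software that made them, and scan batches, were not given in sources used here. No column belonged to another sample.

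From these, 96 control probe sets were removed and every array was brought to 1 median by factors of 0.961 to 1.04. The log2(signal + 16) was then fitted in limma 3.58.1 under R 4.3.3, with group means over all 9 arrays (6 residual degrees of freedom) and Benjamini-Hochberg adjustment over 38439 probe sets. Fold changes of dim genes are understated on this scale. Tables and plots were made in Python 3.11.15 with pandas 2.3.3 and matplotlib 3.10.9. The test was also run on simulated data with known differences, the outcome of which is not given here. Background on an array was set at percentile 95 of the 598 probe sets whose IDs mark virus or reporter sequence. A gene that no array of the dimmer group shows above it has a bound only, and "at least" folds set the brighter group's mean log2 signal against the higher of background and signal on each dimmer array. The number of arrays limits precision.

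Genes were named from the platform annotation (27168 probe sets with 1 gene, 177 with several, 11094 with none), of which 26853 probe sets had a symbol found in the RefSeq annotation, and the brightest probe set stood for each of 13009 genes. Named are the 20 genes with the largest differences in each direction whose arrays do not overlap, called members of fixed lists, a panel of regulators called or not, the leading 10 gained in each direction without frontonasal pool 2, and the genes furthest in excess on that pool. The gene lists and the comparison itself were chosen with earlier results of these data known. Alternatives were each array left out, a fit to 6 arrays, other pseudocounts and scalings, a filter on dim probe sets, replicate number as a block, array weights, an intensity trend and the mean of a gene's probe sets. No genome sequence was used here.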

Additional observations from a re-analysis of the deposited data

How the results depend on the processing

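The probe set count of 974 (454 higher, 520 lower) moved by over 1.5 times in a fit to 6 arrays only, which has fewer residual degrees of freedom (613 called, 264 of them higher), and at pseudocount 1 (602, with 282 higher and 320 lower). Leaving out 1 pool gave 526 to 1089 (231 to 592 higher, 290 to 497 lower), from fewest without mandibular pool 2 to most without frontonasal pool 2, with 545 and 559 without mandibular pools 1 and 3 and 634 without frontonasal pool 1. Against 1089 without frontonasal pool 2, dropping the maxillary arrays as well gave 634 (344 higher, 290 lower), and pseudocount 1 gave 735, of which 313 were lower. Leaving out 1 more pool gave 592 to 781 (315 to 447 higher, 275 to 334 lower). With the replicate block the counts were 830 with all pools and 653 (362 higher, 291 lower) without frontonasal pool 2. The same numbers share no stated origin, and deviations of same-numbered mandibular and frontonasal arrays correlated at 0.137, 0.0786 and 0.234, each mandibular array best with its own number. The share of calls that were higher was 46.6%, 47.8% without scaling, 46.8% after quantile normalisation and 54.4% without frontonasal pool 2. Of 150 named called genes, 77 kept their call under all 16 alternatives and 10 under the 15 that could be run for them, since the filter on dim probe sets removed 14 of the 150. The fit to 6 arrays only lost 39 of the 150 calls and pseudocount 1 lost 37. Most of these losses are not named gene by gene above. ANK1 turned with the mean of its probe sets, to 0.04757 with all pools and 0.005918 without frontonasal pool 2. Beyond these the causes were not tested. Dim genes are limited by background: 27 higher and 41 lower genes have only a bound in their dimmer group, and 21 called genes were above background on no array of either group.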

Other observations

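Some called members of the lists have not yet been described. MSLN, the mesothelial protein mesothelin, measured 19.9, 22.8 and 27.2 in the mandibular and 68.7, 52.1 and 50.99 in the frontonasal pools (-0.89 ± 0.11, limma adjusted p = 0.00477). It was below background in every mandibular pool, so its fitted difference depends on the pseudocount. LGALS3, a galactose-binding lectin listed with gut genes, measured 68.9, 65.7 and 57.9 against 143, 131 and 117 (-0.87 ± 0.11, adjusted p = 0.00504). MITF, a regulator of pigment cells, was lower at -0.74 ± 0.12, a call lost without mandibular pools 1, 2 or 3 or frontonasal pool 1 (limma adjusted p up to 0.0764). TCF15, a helix-loop-helix gene of somites, was lower at -0.67 ± 0.10, a call lost without mandibular pool 2 (limma adjusted p = 0.0554). CUBN, an endocytic receptor of yolk sac and kidney, was lower at -0.63 ± 0.11, a call lost without any 1 pool other than frontonasal pool 3 (limma adjusted p up to 0.082).

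Among secreted proteases, ADAMTS18 was higher at 0.79 ± 0.16, a call lost without any 1 of the 6 pools (limma adjusted p up to 0.124). ADAMTS6, ADAM33 and MMP27 were lower, at -0.47 ± 0.10, -0.53 ± 0.11 and -0.92 ± 0.14. The call of ADAMTS6 was lost without any 1 pool other than frontonasal pool 2 (limma adjusted p up to 0.142), that of ADAM33 was lost without any 1 pool other than frontonasal pool 2 (limma adjusted p up to 0.142) and that of MMP27 was lost without mandibular pool 2 (limma adjusted p = 0.0538). MMP27 also lost its call at pseudocount 1 (limma adjusted p = 0.119). CDH13, a cadherin without a cytoplasmic tail, was higher at 0.41 ± 0.07, a call lost without any 1 of the 6 pools (limma adjusted p up to 0.0994). LRP6, a WNT coreceptor, was called higher (adjusted p = 0.0086) although below background on all 6 arrays.

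Genes called in the fit sometimes lay next to each other in the chicken genome. Of 10550 adjacent pairs with both genes measured, 23 had both called, 18 of them in the same direction, 9 higher and 9 lower. The DLX pair was one, DLX6 and DLX5 both higher and next to each other, beside SHFM1, also higher, with the calls of DLX6 and DLX5 lost without single pools as given above. COL6A1 and COL6A2 were another, both lower, as were BMP6 (-1.16 ± 0.23) and DSP (-0.53 ± 0.11), whose calls were lost without single pools, and the doublesex-related genes DMRT1 and DMRT3. The 5 pairs in opposite directions included CDH5, higher in the mandibular pools, beside CDH11, lower there, with both calls lost without single pools. CXCL14, a chemokine gene at 1.97 ± 0.12 (adjusted p = 0.000187), and NEUROG1, at -1.13 ± 0.13 (adjusted p = 0.00347), were a further such pair. NEUROG1, as given above, was above background only on frontonasal pool 2. These counts were made after the calls were seen and carry no test. They are to be read against the 238 genes (1.83%) called higher and 300 (2.31%) called lower of 13009. How many pairs those shares alone would give was not worked out.

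Different probe sets of a gene did not always give the same call. Of 303 called genes with more than 1 probe set, 77 had another called in the same direction and 1, ELAPOR2, had 1 probe set called in the opposite direction. Beside those already given, ADAMTS6, ANK1, ANTXR1, CLDN5, CUBN, ELAVL2, EBF3, EFNB1, SDC2, DSP, FLRT3, FZD3, PLAU and PLXNC1 had a further probe set that was above background on all 6 arrays and not called. EBF3 and EFNB1 also had other probe sets, above background on all 6 arrays, that were called higher. These differed by 0.9054 for EBF3 (limma adjusted p = 0.01367). For EFNB1 they differed by 0.7106 and 1.004 (limma adjusted p = 0.04775 and 0.001649). With the mean of a gene's probe sets, 22 of the 150 named called genes lost their call and 1 turned. AGRN, ADAMTSL1, COL8A1, EFNA5, EPHB1, FZD3, FZD5, PLXNC1 and SOX10 are given above. The others that lost it were ADAMTS6, APLN, CCND3, CDH11, CUBN, DSP, ELAVL2, FLRT3, LRP6, MITF, NDNF, PLAU and TCF15.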
